A study of Homo sapiens with 15 samples.

Results

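The genes described here are the vitamin D receptor VDR, its dimer partners RXRA and RXRB, and the vitamin D hydroxylases CYP24A1, CYP27B1 and CYP2R1. They were chosen by symbol, each through its Ensembl gene identifier. No rule on measured values was used, but earlier results of these data were known. All 6 members were found among the 60675 genes of the deposited tables, and all 6 were among the 19012 genes that passed the filter on low counts and were tested. CYP27B1 had values near the cutoff of that filter, 0.565 CPM (read counts scaled to library size). It was above the cutoff in 2 FPM_IC50, 2 FPM_IC25, 3 SRM_IC50, 2 SRM_IC25 and 1 UNT library, with 3 libraries in each group.

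The study exposed H9 cells, an established wild-type human embryonic stem cell line, to airborne particles while they differentiated toward bone-forming cells, and sequenced polyadenylated RNA on day 7. The FPM_IC50 and FPM_IC25 groups received fine particulate matter at 1.4 and 0.00062 µg/mL, and the SRM_IC50 and SRM_IC25 groups received a NIST standard reference material at 5.9 and 0.003 µg/mL. UNT is the vehicle control, given DMSO at 0.1%. Exposure ran over the whole differentiation, and each of the 5 groups has 3 libraries. Every group, UNT included, received 1,25α(OH)2 vitamin D3, the active hormone, at 1.2e-07 M together with β-glycerophosphate (0.1 mM) and ascorbic acid (20.8 µg/mL) from day 5 onward. No group went without the hormone, so the values compare particle exposures in its presence and hold no measure of the response to the hormone itself. The IC25 and IC50 concentrations of the particles are matched by inhibition, not by mass. The labels do not say whether the libraries of a group came from separate cultures, so p-values measure only the spread between these libraries, which may be technical.

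Vitamin D is made active in 2 hydroxylation steps. CYP2R1 makes the circulating form and CYP27B1, best known from the kidney proximal tubule, makes the hormone. The hormone binds VDR, a nuclear receptor that pairs with a retinoid X receptor such as RXRA or RXRB and binds response elements in DNA. CYP24A1 breaks the hormone down and is a classical VDR target, so it is widely used as a readout of receptor activity. In bone, osteoblasts carry VDR, and the hormone is a usual supplement in osteogenic media.

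Total counts ran between 9.34 M and 58.2 M per library, and a count of 3, the limit taken here for a gene at 0, corresponds to 0.0504 to 0.309 CPM. The FPM libraries stood apart in 1 respect: genes annotated as antisense took 0.942% to 1.499% of counts in the 6 FPM libraries, against 0.274% to 0.319% in the 9 other libraries. Results on a gene whose exons overlap an opposite-strand gene are therefore given as uncertain, and comparisons among SRM and UNT libraries were also fitted without the FPM libraries. Osteoblast markers were split. The late markers were low, with IBSP at 0 in 13 of 15 libraries and BGLAP at most at 0.543 CPM, whereas ALPL (64.0 to 167 CPM), SPP1 (226 to 551 CPM) and COL1A1 (203 to 420 CPM) were present in every library, as were RUNX2 (3.51 to 8.03 CPM) and SP7 (0.496 to 1.78 CPM). Kidney proximal tubule markers were split too: SLC34A1 was at 0 in 14 libraries, while LRP2 (73.9 to 354 CPM), AQP1 (4.58 to 11.5 CPM) and GGT1 (3.96 to 6.17 CPM) were present in every library. SLC5A2, whose exons overlap an opposite-strand gene, averaged 9.46 CPM in FPM_IC50, 8.32 CPM in FPM_IC25 and 0.0927 CPM in UNT libraries. Macrophage markers were mostly low, and 2 of 7 were tested. TYROBP was at 0 in 10 libraries, CD68 in 8, SPI1 in 7, PTPRC in 3 and CD14 in 2. CSF1R (1.41 to 8.82 CPM) and AIF1 (0.181 to 1.41 CPM) were present in every library.

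Per gene length, the dimer partners were the most abundant members and the receptor was among the least. Over the 15 libraries the mean level was 8.04 FPKM (CPM without TMM scaling, divided by gene length in kilobases) for RXRA, 7.73 FPKM for RXRB, 2.96 FPKM for CYP2R1, 0.762 FPKM for CYP24A1, 0.253 FPKM for VDR and 0.228 FPKM for CYP27B1. Among the tested genes, RXRA and RXRB stood at the 70.6 and 69.6 percentiles of mean FPKM, and VDR and CYP27B1 at the 7.74 and 6.72 percentiles. The ranges of RXRA and RXRB overlapped in every group except FPM_IC25, so their order is not settled by the spread. CYP2R1 lay below both and above CYP24A1 without overlap in all 5 groups. VDR and CYP27B1 overlapped in FPM_IC50, SRM_IC25 and UNT libraries, and VDR was above CYP27B1 without overlap in FPM_IC25 libraries. The bottom of the order differed in SRM_IC50 libraries: there VDR averaged 0.0890 ± 0.0550 FPKM and was below CYP27B1 at 0.292 FPKM without overlap, and CYP27B1 overlapped CYP24A1 at 0.427 FPKM.

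**Figure D1:**
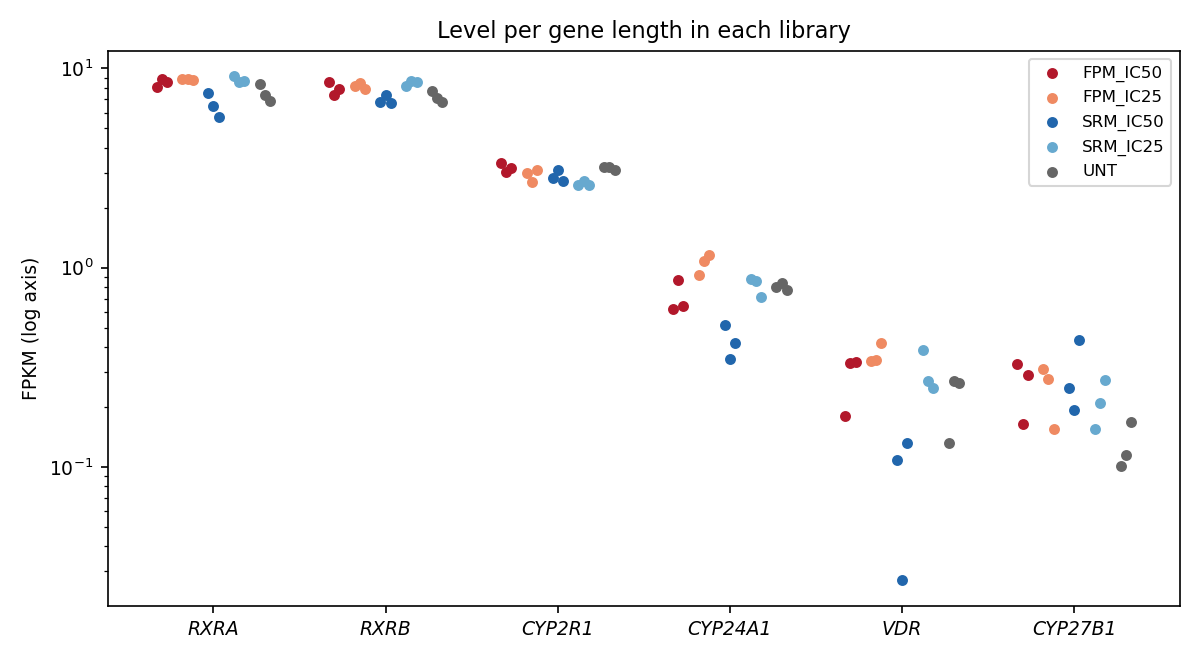
Level per gene length (FPKM, log axis) of the 6 members in each of the 15 libraries, 1 point per library, coloured by group and drawn within each gene in the order FPM_IC50, FPM_IC25, SRM_IC50, SRM_IC25, UNT. RXRA and RXRB lie near 8 FPKM, and VDR lies at 0.0269 to 0.132 FPKM in SRM_IC50 libraries, where it overlaps VDR and CYP27B1 in UNT libraries.

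The main pattern over the groups was low VDR and CYP24A1 in SRM_IC50 libraries. Against UNT, 2 of 6 members were called in SRM_IC50 libraries, both lower, where 17.6% of all tested genes were called and 9.59% were called lower (edgeR quasi-likelihood test, Benjamini-Hochberg adjusted p under 0.05 over all tested genes). No member was called against UNT in FPM_IC50 libraries (13.6% of all genes), in FPM_IC25 libraries (14.2%) or in SRM_IC25 libraries (4.37%). In these 3 comparisons DESeq2 also called 0 members, limma called 0 of the 4 members it could test, and edgeR gave 0, 1 and 3 members an unadjusted p under 0.05. DESeq2 gave VDR no adjusted p in SRM_IC25 against UNT libraries. Between particle doses, 4 of 6 members were lower in SRM_IC50 than in SRM_IC25 libraries (26.9% of all genes called, 13.2% lower). Between FPM_IC50 and FPM_IC25 libraries 0 members were called (0.0105% of all genes), with 1 member at an unadjusted p under 0.05 in edgeR and 0 called by DESeq2 or limma. Between particles, 3 of 6 members were higher in FPM_IC50 than in SRM_IC50 libraries (39.3% of all genes called, 23.2% higher), and 0 members were called between FPM_IC25 and SRM_IC25 libraries (10.5%; 0 at an unadjusted p under 0.05, and 0 by DESeq2 or limma). These are counts of 6 genes, and nothing about the members as a group is read from them.

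**Figure D2:**
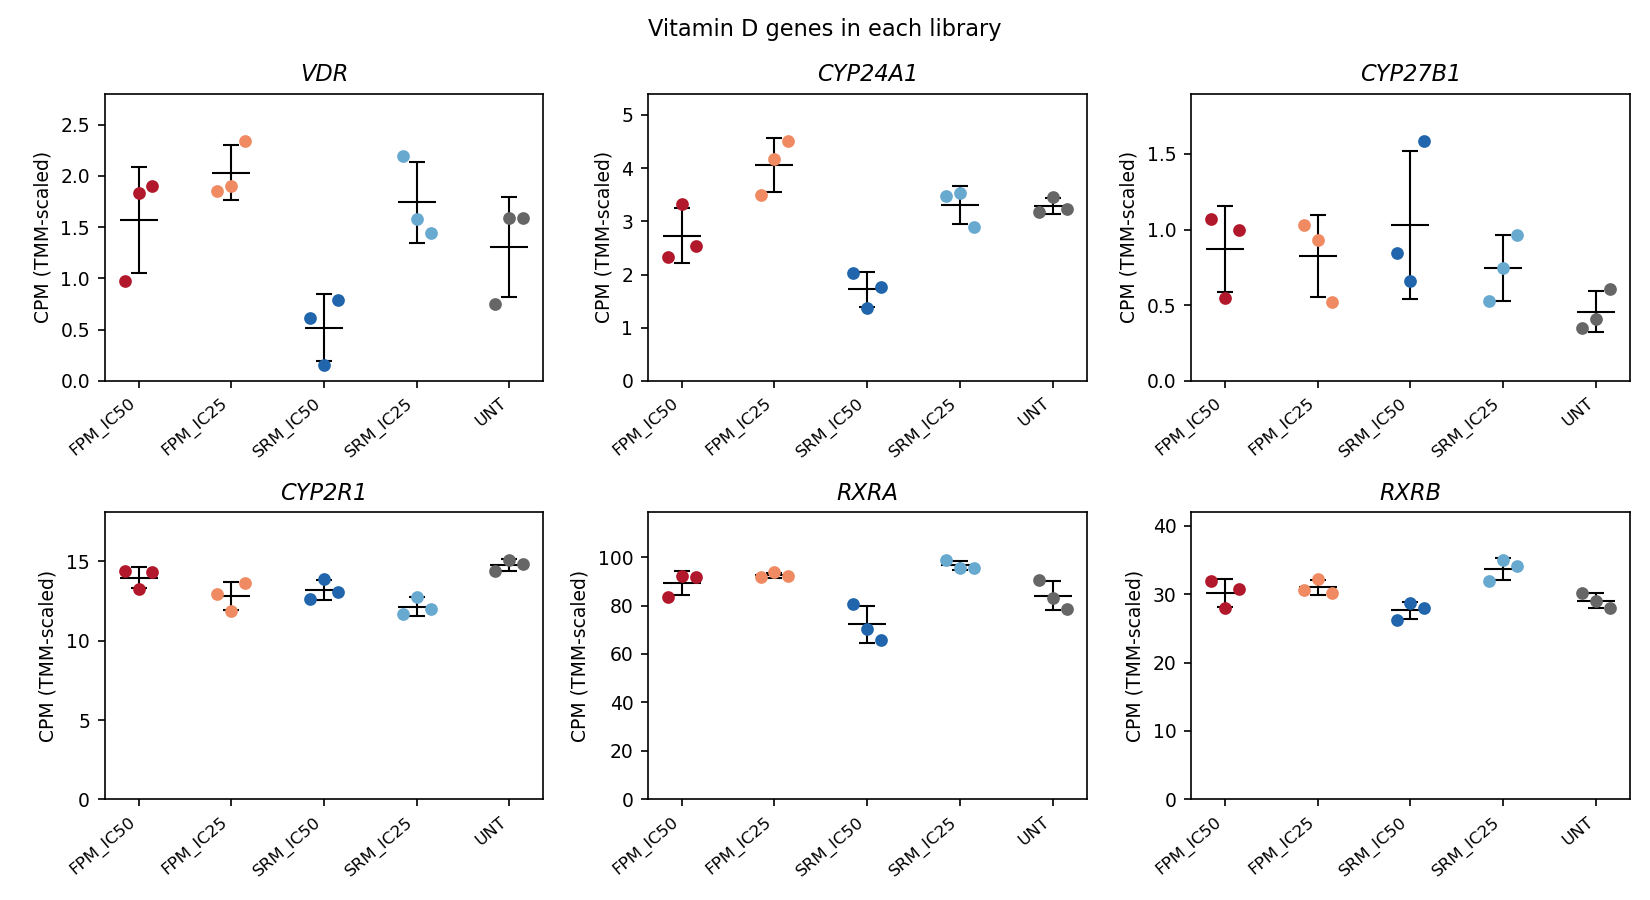
TMM-scaled CPM (linear axes starting at 0) of each member in each library. Points are libraries, and horizontal lines with bars are the mean ± SD of the 3 libraries of a group; all SRM_IC50 points of CYP24A1, at 1.37 to 2.03 CPM, lie below every other group.

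VDR was the member with the lowest values in SRM_IC50 libraries relative to the other groups. It had 0.610, 0.153 and 0.791 CPM in SRM_IC50 libraries, against 0.746, 1.59 and 1.59 CPM in UNT libraries. SRM_IC25 libraries had 2.19, 1.58 and 1.45 CPM. SRM_IC50 replicate 2 was the lowest of all 15 libraries and held 3 reads, which is at the limit set for a gene at 0. SRM_IC50 and UNT libraries overlapped, through UNT replicate 1 and SRM_IC50 replicate 3, whereas SRM_IC50 and SRM_IC25 libraries did not. VDR had 0.974, 1.83 and 1.90 CPM in FPM_IC50 libraries, and 1.85, 1.90 and 2.34 CPM in FPM_IC25 libraries. Each FPM library was above every SRM_IC50 library, and each FPM_IC25 library was above every UNT library.

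The log2 fold change of VDR was −1.36 ± 0.43 (SE, n = 3 each) in SRM_IC50 against UNT libraries, with an adjusted p of 0.0395. Against SRM_IC25 libraries it was −1.77 ± 0.41 (adjusted p = 0.00441), and FPM_IC50 libraries exceeded SRM_IC50 libraries by 1.69 ± 0.44 (adjusted p = 0.00547). The last 2 calls held in every alternative that gave VDR a value. The call against UNT did not: the adjusted p was 0.135 when only SRM_IC50 and UNT libraries were fitted and 0.0792 without the FPM libraries, with log2 fold changes of −1.36 in both. Leaving out single libraries kept it in 8 of 15 fits. It was lost without SRM_IC50 replicate 2, where the log2 fold change was −0.92 and the adjusted p 0.167. It was also lost without SRM_IC50 replicate 1 (0.0620), UNT replicate 2 (0.148), UNT replicate 3 (0.136), SRM_IC25 replicate 2 (0.0514), SRM_IC25 replicate 3 (0.0506) or FPM_IC25 replicate 1 (0.0506).

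**Figure D3:**
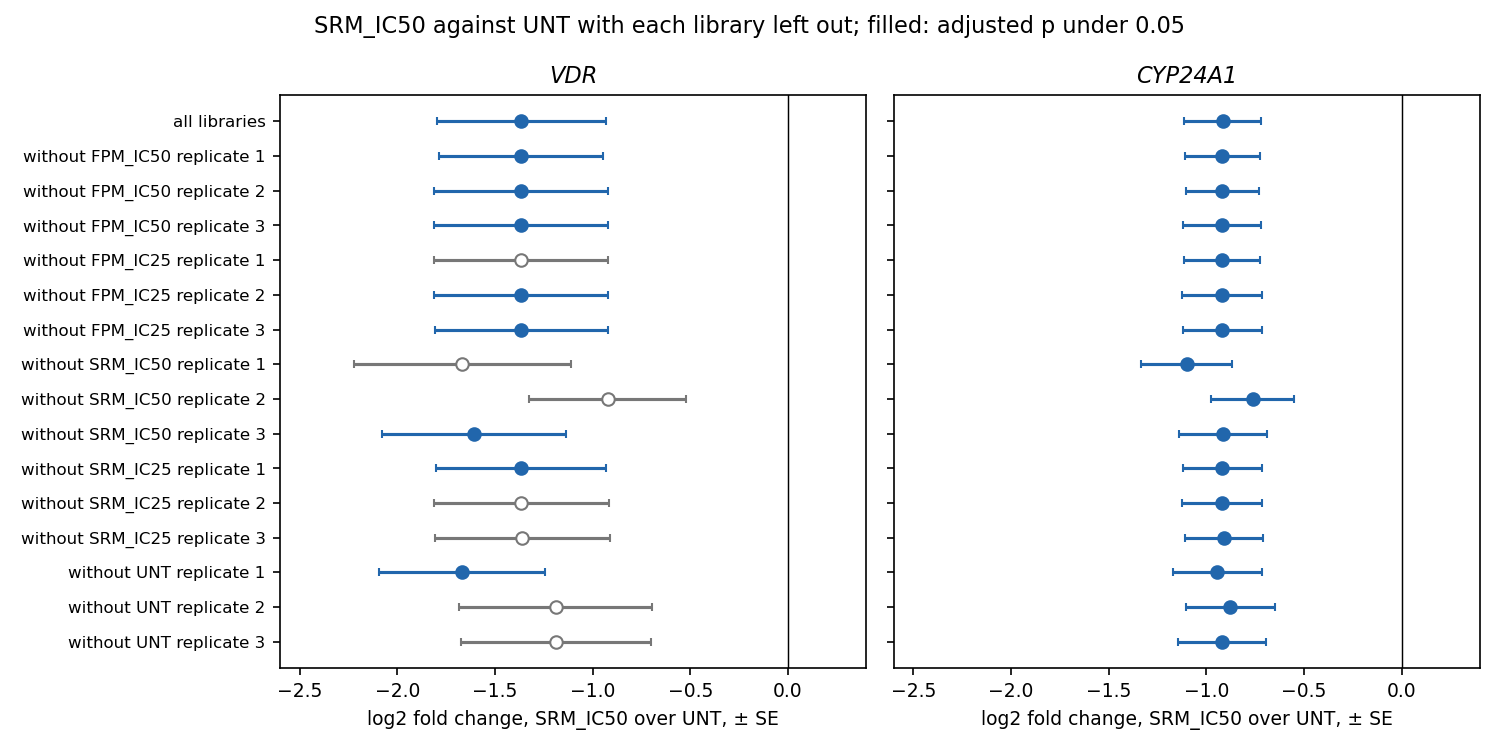
Log2 fold change ± SE of VDR and CYP24A1 in SRM_IC50 against UNT libraries, with all libraries (top) and with each library left out in turn; filled points have an edgeR adjusted p under 0.05. VDR lies between −1.67 and −0.92 and is filled in 8 of the 15 fits, and CYP24A1 lies between −1.10 and −0.76 and is filled in all 15.

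In the other comparisons VDR did not pass the test, and the intervals, taken as 2 SE either side, were wide. The log2 difference from UNT was 0.32 for FPM_IC50 (−0.44 to 1.08), 0.69 for FPM_IC25 (−0.0016 to 1.39) and 0.40 for SRM_IC25 (−0.31 to 1.12). The dose by particle term, which asks whether the IC50-to-IC25 difference is the same for both particles, was 1.39 ± 0.55 for VDR with an adjusted p of 0.106, and it passed the threshold with no expression filter (1.38, adjusted p = 0.0491). The VDR gene lies on the minus strand at chr12:47841537-47943048 (GRCh38, GENCODE 29). An antisense gene overlaps its exons by 19 bases on the other strand and had at most 1 read in any library. A long noncoding RNA gene within its introns averaged 0.177 CPM in SRM_IC50 and 0.268 CPM in UNT libraries.

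CYP24A1, the hormone-degrading enzyme, was lower in SRM_IC50 libraries by almost the same amount against UNT and SRM_IC25. It had 2.03, 1.37 and 1.76 CPM in SRM_IC50 libraries, against 3.18, 3.47 and 3.23 CPM in UNT libraries. SRM_IC25 libraries had 3.48, 3.54 and 2.89 CPM. The SRM_IC50 libraries were below all 12 others, with no overlap. CYP24A1 had 2.34, 3.32 and 2.53 CPM in FPM_IC50 libraries, and 3.50, 4.18 and 4.50 CPM in FPM_IC25 libraries. FPM_IC25 libraries were above every UNT library, and FPM_IC50 libraries straddled the lower end of the UNT range.

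The log2 fold change of CYP24A1 was −0.92 ± 0.20 in SRM_IC50 against UNT libraries (adjusted p = 0.00336, SE, n = 3 each), or 0.53 of the UNT level. It was −0.93 ± 0.19 against SRM_IC25 libraries (adjusted p = 0.00191). Both calls held in all 26 alternatives, with adjusted p of 0.00720 and 0.00486 without the FPM libraries. FPM_IC50 libraries exceeded SRM_IC50 libraries by 0.68 ± 0.21 (adjusted p = 0.0149). That call was lost without FPM_IC50 replicate 2 (adjusted p = 0.144), without SRM_IC50 replicate 2 (0.0829), with only the 2 groups fitted (0.0721) and with no expression filter (0.0558). FPM_IC50 libraries lay below FPM_IC25 libraries without overlap, by a log2 difference of −0.57 ± 0.19 whose unadjusted p was 0.00800 and whose adjusted p was 0.843. Against UNT the log2 difference was −0.24 for FPM_IC50 (−0.62 to 0.15), 0.33 for FPM_IC25 (−0.023 to 0.69) and 0.02 for SRM_IC25 (−0.35 to 0.38). The dose by particle term was 0.36 (adjusted p = 0.429). CYP24A1 lies on the minus strand at chr20:54153449-54173973, and no opposite-strand gene is annotated within 5 kb.

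The enzymes of the activating steps passed no test. CYP27B1, which makes the hormone, had 0.848, 0.662 and 1.58 CPM in SRM_IC50 libraries, against 0.348, 0.411 and 0.610 CPM in UNT libraries. Its SRM_IC50 libraries were all above its UNT libraries, by a margin smaller than the spread within SRM_IC50, and all values rest on 7 to 37 reads per library. It had 1.07, 0.545 and 0.996 CPM in FPM_IC50 libraries, 1.03, 0.928 and 0.521 CPM in FPM_IC25 libraries and 0.530, 0.749 and 0.965 CPM in SRM_IC25 libraries, ranges that each overlapped UNT. The log2 difference from UNT was 0.86 for FPM_IC50, 0.71 for FPM_IC25, 1.09 for SRM_IC50 and 0.74 for SRM_IC25, and the smallest adjusted p was 0.102, in SRM_IC50. Its interval in SRM_IC50 was 0.23 to 1.95. CYP27B1 lies on the minus strand at chr12:57762334-57768986, and 107 of its exonic bases also belong to METTL1 on the same strand. METTL1, an RNA methyltransferase, was higher in SRM_IC50 than in UNT libraries by 0.42 on the log2 scale (adjusted p = 0.0204) and averaged 12.2 ± 1.60 CPM in SRM_IC50 and 9.06 ± 0.477 CPM in UNT libraries. Its part in the CYP27B1 values was not tested.

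CYP2R1, which makes the circulating form, varied little. It averaged 13.98 ± 0.653 CPM in FPM_IC50, 12.8 ± 0.898 CPM in FPM_IC25, 13.2 ± 0.633 CPM in SRM_IC50, 12.1 ± 0.581 CPM in SRM_IC25 and 14.8 ± 0.362 CPM in UNT libraries (SD, n = 3 each). UNT was the highest group, and FPM_IC25, SRM_IC50 and SRM_IC25 libraries lay below it without overlap. The difference nearest to a call was SRM_IC25 against UNT, at −0.28 on the log2 scale (−0.46 to −0.090, adjusted p = 0.0956). For SRM_IC50 against UNT it was −0.16 (−0.35 to 0.025, adjusted p = 0.289). CYP2R1 lies on the minus strand at chr11:14877440-14892252, also without an opposite-strand gene that near.

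RXRA, a dimer partner of VDR, was lower in SRM_IC50 than in SRM_IC25 libraries and lower than in FPM_IC50 libraries. It had 80.5, 70.3 and 65.7 CPM in SRM_IC50 libraries, against 98.8, 95.6 and 95.6 CPM in SRM_IC25 libraries. UNT libraries had 90.7, 83.0 and 78.7 CPM. SRM_IC50 lay below SRM_IC25 without overlap and overlapped UNT through SRM_IC50 replicate 1 and UNT replicate 3. RXRA had 83.4, 92.4 and 91.8 CPM in FPM_IC50 libraries, and 91.6, 93.7 and 92.3 CPM in FPM_IC25 libraries. All 6 FPM libraries exceeded all SRM_IC50 libraries, while FPM_IC50 and UNT libraries overlapped.

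The log2 fold change of RXRA was −0.42 ± 0.084 in SRM_IC50 against SRM_IC25 libraries (adjusted p = 0.00152, SE, n = 3 each), and FPM_IC50 libraries exceeded SRM_IC50 libraries by 0.30 ± 0.085 (adjusted p = 0.00921). Against UNT, SRM_IC50 libraries differed by −0.22 ± 0.084 (adjusted p = 0.0928). The SRM_IC50 against SRM_IC25 call of RXRA was lost when counts were corrected for GC content (−0.27, adjusted p = 0.0518), and the same correction brought SRM_IC50 against UNT past the threshold (−0.29, adjusted p = 0.0486), as did leaving out SRM_IC50 replicate 1 (−0.31, adjusted p = 0.0269). The FPM_IC50 against SRM_IC50 call was lost without SRM_IC50 replicate 3 (0.0560), with only those groups fitted (0.0670) and with no expression filter (0.0655). The dose by particle term was 0.37 ± 0.12 with an adjusted p of 0.0504. It passed the threshold under 7 of 25 alternatives, DESeq2 among them (0.0235).

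RXRB, the other dimer partner, followed with a smaller difference. It had 26.3, 28.7 and 28.0 CPM in SRM_IC50 libraries, against 31.9, 35.0 and 34.1 CPM in SRM_IC25 libraries, with no overlap. UNT libraries had 30.2, 29.02 and 28.0 CPM and overlapped SRM_IC50. RXRB averaged 30.2 ± 2.04 CPM in FPM_IC50 and 31.0 ± 1.08 CPM in FPM_IC25 libraries. The log2 fold change of RXRB in SRM_IC50 against SRM_IC25 libraries was −0.29 ± 0.080 (adjusted p = 0.0135). The RXRB call was lost with the GC correction (−0.16, adjusted p = 0.177), with no expression filter (0.1104), with only the 2 groups fitted (0.0558), without SRM_IC50 replicate 1 (0.0629) and without SRM_IC25 replicate 2 (0.0691). In SRM_IC50 against UNT libraries it was −0.07 (−0.23 to 0.087), and SRM_IC25 differed from UNT by 0.21 (adjusted p = 0.126). Without the FPM libraries the SRM_IC50 against SRM_IC25 call held for all 4 members, at adjusted p of 0.0160 for VDR, 0.00486 for CYP24A1, 0.0110 for RXRA and 0.0301 for RXRB.

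**Figure D4:**
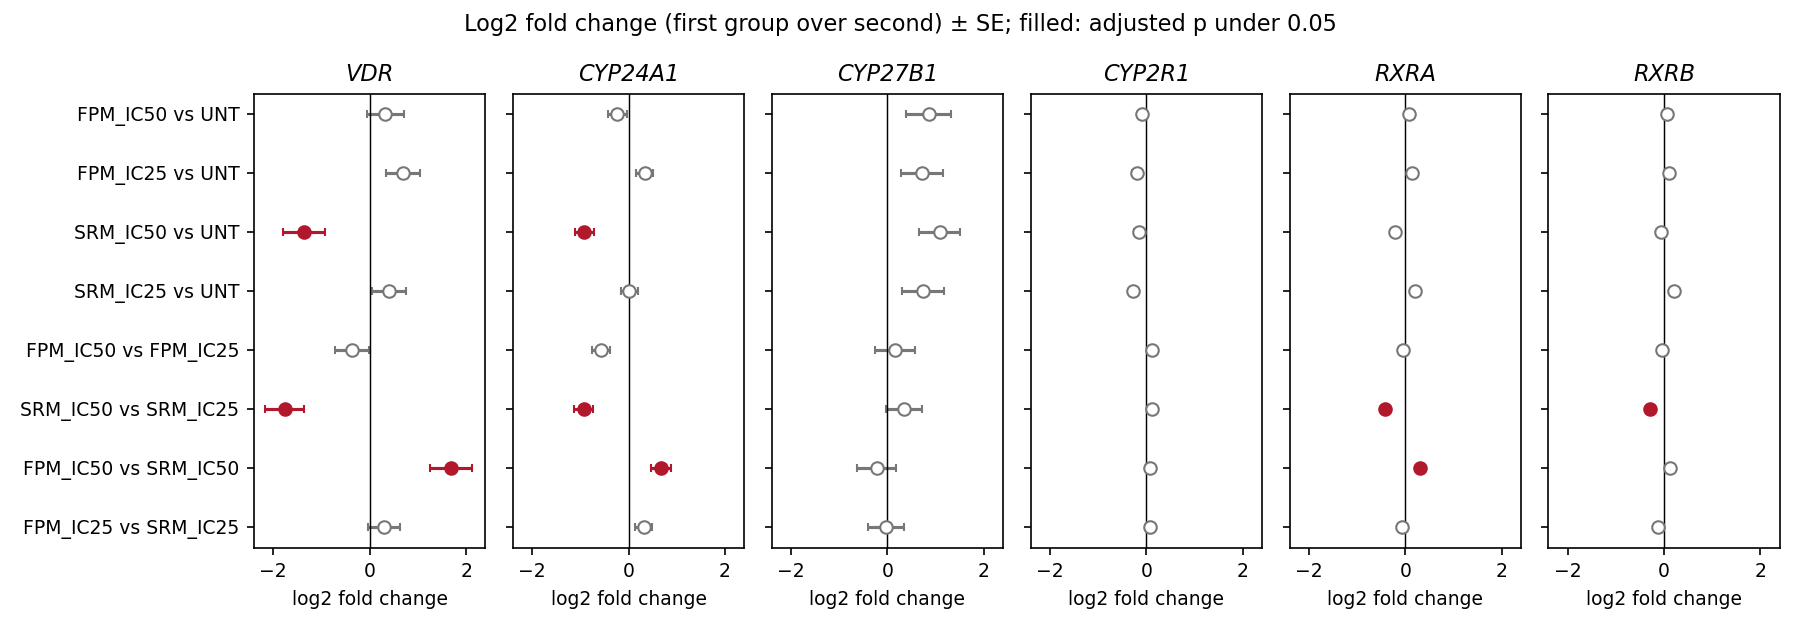
Log2 fold change (first group over second) ± SE of each member in the 8 pairwise comparisons; filled red points have an edgeR adjusted p under 0.05. The red points all involve SRM_IC50 libraries: 2 against UNT, 4 against SRM_IC25 and 3 against FPM_IC50.

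Start-site sequences are shown for RXRA and RXRB, the members lower in SRM_IC50 than in SRM_IC25 libraries whose call was lost with the GC correction. The RXRA call held with that correction and the replicate number as a block. The correction used the GC content of a transcript of each gene (60.6% for RXRA and 58.5% for RXRB). The GC content of the start-site windows did not enter it and has no bearing on those calls. RefSeq windows (GRCh38.p14, 300 bases around a transcription start) matched 3 of 6 members, with 7 windows for RXRA, RXRB and CYP2R1. Of the 2 RXRA windows (84.0% and 64.7% GC) and 2 RXRB windows (60.0% and 54.0% GC), those with the higher GC content are printed. The printed RXRA window is chr9:134326205-134326504 on the plus strand, and the median GC content over all 35116 windows was 58.7%. The printed RXRB window is chr6:33200616-33200915 on the minus strand. Capitals mark the 73 bases that lie in exons of both RXRB and the zinc transporter gene SLC39A7, which runs the other way.
RXRA: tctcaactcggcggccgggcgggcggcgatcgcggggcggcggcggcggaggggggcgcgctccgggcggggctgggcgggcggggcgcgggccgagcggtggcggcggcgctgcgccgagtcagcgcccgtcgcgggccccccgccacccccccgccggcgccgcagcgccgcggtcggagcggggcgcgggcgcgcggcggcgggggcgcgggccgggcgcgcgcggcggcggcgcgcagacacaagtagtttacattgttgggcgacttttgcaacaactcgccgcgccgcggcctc
RXRB: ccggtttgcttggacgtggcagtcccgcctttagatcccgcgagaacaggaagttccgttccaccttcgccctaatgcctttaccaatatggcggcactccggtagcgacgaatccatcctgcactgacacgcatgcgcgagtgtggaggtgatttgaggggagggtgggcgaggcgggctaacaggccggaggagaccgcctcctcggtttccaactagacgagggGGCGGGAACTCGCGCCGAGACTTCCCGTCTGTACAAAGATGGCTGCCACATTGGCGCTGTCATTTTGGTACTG
In all, 244 exonic bases of RXRB overlap SLC39A7, so reads of the pair cannot be told apart there if strand was not used in counting, and the RXRB values are uncertain to that extent. SLC39A7 averaged 119 ± 7.55 CPM in SRM_IC50 and 131 ± 3.98 CPM in SRM_IC25 libraries, a log2 difference of −0.14 (adjusted p = 0.158). RXRA lies on the plus strand at chr9:134317098-134440585, and the annotation puts no gene on its other strand within 5 kb; RXRB is on the minus strand at chr6:33193588-33200688. The half-site AGGTCA, searched on both strands, was in none of the 7 member windows and in 13.8% of all windows. The DR3 element, a pair of such half-sites with 3 bases between them and the form that VDR with RXR is known to bind, was allowed to vary from AGGTCA as known elements do and was also in none of the 7 and in 0.251% of all windows, both strands searched. The absence says only that these letters are not in these windows.

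Compared across all 5 groups at once, VDR (adjusted p = 0.00676), CYP24A1 (0.000832) and RXRA (0.00642) differed, 3 of 6 members where 40.8% of all tested genes were called. RXRB (0.0626), CYP2R1 (0.141) and CYP27B1 (0.3001) did not pass. The dose by particle term was called for 0 of 6 members in edgeR, with 3 at an unadjusted p under 0.05, for 1 in DESeq2 and for 0 of the 4 testable members in limma (14.6% of all genes were called in edgeR). So VDR, CYP24A1 and RXRA differed between FPM_IC50 and SRM_IC50 libraries, but the dose by particle term did not pass for them in edgeR with the filter used.

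Other genes of the pathway were read from lists, whose counts in SRM_IC50 against UNT libraries stand beside 17.6% of all tested genes called and 9.59% called lower. The lists were chosen with earlier results of these data known, so their counts support nothing about a list as a whole. Among classical vitamin D targets, 19 of 26 were tested, and in SRM_IC50 against UNT libraries 4 were lower, 2 were higher and 13 did not pass, with a median log2 fold change of −0.33 against 0.00 over all tested genes. IGFBP3, an insulin-like growth factor binding protein, averaged 93.2 ± 16.0 CPM in SRM_IC50 and 567 ± 51.1 CPM in UNT libraries (log2 fold change −2.61, adjusted p = 1.97e-08). TRPV6, an epithelial calcium channel, averaged 2.00 ± 0.0582 CPM in SRM_IC50 and 7.98 ± 1.12 CPM in UNT libraries (−1.99, adjusted p = 9.53e-07). The calcium pump ATP2B1 (−0.88) and the sodium-calcium exchanger SLC8A1 (−0.89, adjusted p = 0.0119) were the other lower targets. The SLC8A1 call was lost with both limma fits (adjusted p = 0.0998 and 0.0657). The targets higher in SRM_IC50 libraries were CALB1, a calcium-buffering protein, at 1.59 (adjusted p = 0.00374), and SEMA3B, a secreted semaphorin, at 0.52 (adjusted p = 0.00787). CALB1 averaged 2.69 ± 0.975 CPM in SRM_IC50 and 0.907 ± 0.380 CPM in UNT libraries. SPP1, the bone matrix protein osteopontin, did not pass against UNT (0.34, adjusted p = 0.218) and was higher in SRM_IC50 than in SRM_IC25 libraries (0.73, adjusted p = 0.00472). BGLAP and TNFSF11, targets known from bone, were too low to be tested. TRPV6, ATP2B1 and SLC8A1 have exons that overlap an opposite-strand gene, as 7 of the 19 tested targets do, and their values are uncertain to that extent.

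Targets were called in both directions in the other SRM_IC50 comparisons as well. Against SRM_IC25, SRM_IC50 libraries had 5 of 19 targets lower and 2 higher, where 26.9% of all genes were called and 13.2% were lower. FPM_IC50 libraries had 7 targets higher and 3 lower than SRM_IC50 libraries, where 39.3% of all genes were called and 23.2% were higher. In FPM_IC50 against UNT libraries, with 13.6% of all genes called, TRPV6 was the 1 tested target called, at 0.59 (adjusted p = 0.0149), and that call was lost without FPM_IC50 replicate 3 or UNT replicate 2. In edgeR 0 targets were called for FPM_IC25 or SRM_IC25 against UNT (14.2% and 4.37% of all genes), with 4 and 3 at an unadjusted p under 0.05; DESeq2 called 1 and 2, and limma 0 in both.

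Of the transport and synthesis genes, 8 of 10 were tested. In SRM_IC50 against UNT libraries LRP2, the endocytic receptor megalin that takes up vitamin D bound to its carrier, was lower at −1.08 (adjusted p = 0.00211), with 111 ± 32.6 CPM in SRM_IC50 and 235 ± 50.3 CPM in UNT libraries. CYP11A1, the steroid side-chain cleavage enzyme that also hydroxylates vitamin D, was lower at −2.23 (adjusted p = 7.07e-06), and its exons overlap an opposite-strand gene. DHCR7, which turns the skin precursor of vitamin D into cholesterol, was higher at 0.41 (adjusted p = 0.00261), as was FDXR, the reductase that feeds electrons to mitochondrial hydroxylases, at 0.63 (adjusted p = 0.0120). The FDXR call was lost without UNT replicate 1 and with only the 2 groups fitted. The other 4 did not pass, and the list's median was 0.27. GC, the vitamin D carrier of plasma, was too low to be tested.

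Of 14 VDR coregulators, all tested, 1 passed in SRM_IC50 against UNT libraries, the coactivator NCOA3 at −0.61 (adjusted p = 0.0425), and 13 did not, with a median of 0.05. The NCOA3 call held in 14 of 26 alternatives and was lost with both limma fits, with only the 2 groups fitted, without the FPM libraries, without either SRM_IC50 replicate 2 or 3, without UNT replicate 1 or 2, and without FPM_IC50 replicate 3, FPM_IC25 replicate 1 or 3 or SRM_IC25 replicate 2. Its exons overlap SULF2 on the other strand. In FPM_IC50 against UNT libraries the coregulator SNW1 was lower at −0.33 (adjusted p = 0.0283), with exons that overlap SLIRP. The SNW1 call held in 16 of 25 alternatives. It was lost with both limma fits, with only the 2 groups fitted, with the GC correction, with TMM from genes without an opposite-strand neighbour, without FPM_IC50 replicate 1 or 2 and without UNT replicate 2 or 3, at adjusted p of up to 0.138.

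Among nuclear receptors that also pair with RXR, 13 of 15 were tested, and 3 were lower and none higher in SRM_IC50 against UNT libraries. They were PPARG, the adipocyte regulator, at −2.64 (2.17 ± 0.406 CPM in SRM_IC50 and 13.2 ± 0.617 CPM in UNT libraries), the thyroid hormone receptor THRB at −1.87 and the retinoic acid receptor RARB at −1.46. Each had an adjusted p of 8.41e-07 or less and passed in all 26 alternatives; THRB and RARB have exons that overlap an opposite-strand gene. The other 10 did not pass, and the list's median was −0.13 over the 12 genes above 3 reads in either group. In FPM_IC50 against UNT libraries the partner receptor called was NR1I3, the xenobiotic receptor CAR, at 2.61 ± 0.824 CPM in FPM_IC50 libraries, while no UNT library had more than 3 reads. It averaged 1.99 ± 0.169 CPM in FPM_IC25, 0 in SRM_IC50 and 0.0387 CPM in SRM_IC25 libraries. NR1I3 passed the filter on low counts only through the FPM groups, where it is high, so it had to differ and its call supports nothing. Its exons overlap those of TOMM40L on the other strand, and the antisense share was higher in the same FPM libraries; its part in the NR1I3 value was not tested.

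**Figure D5:**
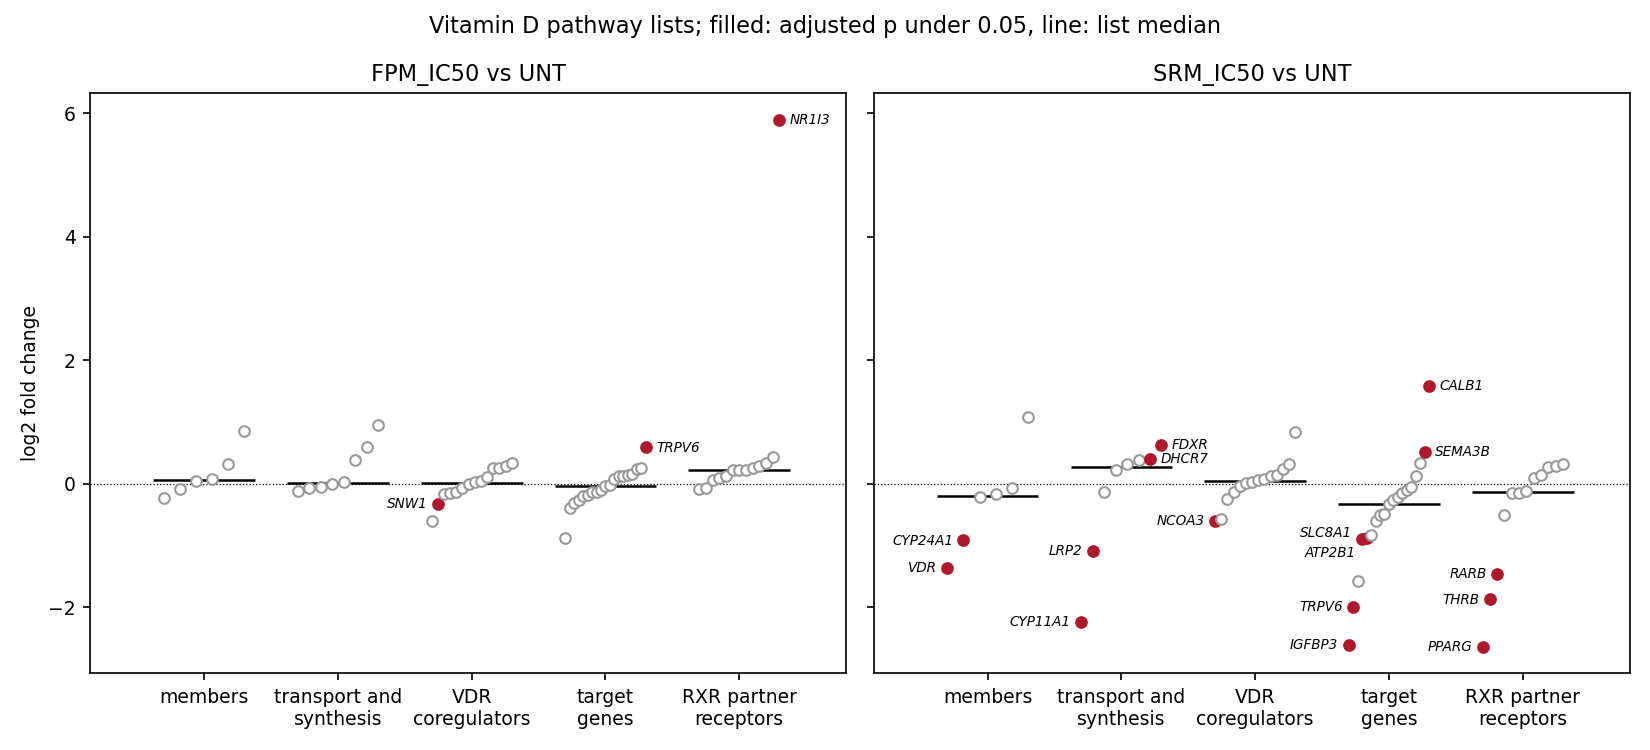
Log2 fold change of the tested genes of the members and of the 4 pathway lists, in FPM_IC50 against UNT libraries (left) and SRM_IC50 against UNT libraries (right). Filled red points, labelled with the gene, have an edgeR adjusted p under 0.05. Horizontal lines are list medians (−0.33 for the targets on the right). NR1I3, with at most 3 reads in any UNT library, is drawn on the left at 5.89, which is no measure of size. It counts in the left median and is left out on the right.

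Cell type markers moved in the same libraries as VDR and CYP24A1, and some also moved in groups where no member was called against UNT. The summed level of 15 amnion and trophoblast markers was 481 to 522 CPM in SRM_IC50, against 1568 to 1835 CPM in UNT libraries, with 13 markers lower and 1 higher. The summed level of 12 pluripotency markers was 3121 to 3588 CPM in SRM_IC50, against 2048 to 2270 CPM in UNT libraries, with 8 higher and 0 lower by edgeR. SRM_IC25 libraries lay at 1581 to 1817 CPM for the amnion and trophoblast markers and 1617 to 1656 CPM for the pluripotency markers. Against UNT, 4 pluripotency markers were lower in SRM_IC25, 6 in FPM_IC25 and 3 in FPM_IC50 libraries, with 0 higher in each. Of the amnion and trophoblast markers, 0, 1 and 4 were higher in the same order, with 0 lower in each. Over all tested genes, 4.37%, 14.2% and 13.6% were called in these 3 comparisons. The SRM_IC25 marker calls are fragile. With the GC correction, with only those groups fitted or without the FPM libraries, 0 genes of any kind were called in SRM_IC25 against UNT libraries. The 12 osteoblast markers, of which 8 were tested, summed to 1662 to 1842 CPM in SRM_IC50 and 1512 to 1600 CPM in UNT libraries, with 2 higher and 2 lower. The 7 macrophage markers summed to 2.85 to 3.25 CPM in SRM_IC50 and 5.23 to 6.37 CPM in UNT libraries. CSF1R made up most of this sum in UNT libraries and was lower in SRM_IC50 (1.55 CPM in SRM_IC50 and 5.16 CPM in UNT libraries, log2 fold change −1.72). AIF1, the other tested marker, was higher (1.14 CPM in SRM_IC50 and 0.2998 CPM in UNT libraries, 1.85, edgeR adjusted p = 0.000835). AIF1 averaged 0.273 CPM in FPM_IC50 and 0.327 CPM in FPM_IC25 libraries. It passed the filter on low counts only through the SRM groups, where it is high, so its call supports nothing. The 7 kidney proximal tubule markers summed to 89.2 to 152 CPM in SRM_IC50 and 200 to 300 CPM in UNT libraries, and LRP2 made up nearly all of this. Of the 5 that were tested, LRP2 was lower and 4 did not pass. The log2 differences of CUBN (0.33), AQP1 (0.52) and GGT1 (0.43) were positive. SLC5A2 was low in both groups, at 0.173 CPM in SRM_IC50 and 0.0927 CPM in UNT libraries. In bulk RNA, fewer cells of a type and less RNA per cell cannot be told apart, and the part of cell type makeup in the VDR, CYP24A1, RXRA and target gene values was not tested.

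Across the 15 libraries the genes most like each member were named by Pearson correlation of log2 CPM, as a description over libraries that share groups and depth. For VDR these were PLEKHG6 (r = 0.919), SLC44A3 (0.917) and BICDL2 (0.915). For CYP24A1 they were the collagen gene COL3A1 (r = 0.924), LGSN (0.919) and the matrix metalloproteinase gene MMP9 (0.911). RXRA was closest to EHD1 (r = 0.963), PIGS (0.957) and MROH1 (0.955), and RXRB to RUSF1 (0.920), XRCC1 (0.882) and APBB1 (0.874). CYP2R1 was closest to ARL6IP1 (r = 0.864), MAL2 (0.847) and TM9SF2 (0.843), and CYP27B1 to PSMG4 (0.867), GLYCTK (0.832) and RASIP1 (0.828). BICDL2, MMP9, RUSF1, XRCC1, MAL2, TM9SF2, PSMG4 and GLYCTK have exons that overlap an opposite-strand gene, and their correlations are uncertain to that extent.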

How the data were processed

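The submitters' processing notes name HISAT2 2.2.1, featureCounts (Subread 2.0.15), SAMtools 1.10, FastQC 0.11.7, DESeq2 and GRCh38. Annotation, strand setting and multi-mapping rule: not given in the sources used here. The authors deposited whole-number counts per gene and a table of FPKM per gene. FPKM recomputed from the counts matched the deposited FPKM.

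Members and lists were chosen with earlier results of these data known. Named list genes were up to 4 called genes a direction and comparison, those with the smallest adjusted p, and, chosen after seeing the data, every gene called for the dose by particle term; uncalled genes carry their values. The 3 most similar genes per member had a mean of at least 1 CPM.

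Counts were scaled with TMM, filtered with filterByExpr (minimum count 10) and fitted in edgeR 4.0.16 (R 4.3.3) with the robust quasi-likelihood test over 5 group means, with Benjamini-Hochberg adjustment over 19012 genes and a threshold of 0.05. The scripts were tested on simulated data. The alternatives comprised the DESeq2 1.42.0 test, edgeR with DESeq2 size factors, no filter, limma 3.58.1 on log2(FPKM + 1) and log2(FPKM + 0.1) for genes with at least 0.5 FPKM in 3 libraries, TMM from genes without an opposite-strand gene within 5 kb, a GC correction by loess with span 0.3, the replicate number as a block, the compared groups alone, each library left out and, added after seeing the data, no FPM libraries. Replicates of a group differed by more than sampling noise. Intervals are 2 SE either side of a fold change. Of 60675 genes, 57055 were placed on GENCODE 29.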

Additional observations from a re-analysis of the deposited data

Results flagged for a closer look

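These results stand out because effects of the particles or doses differed between groups by a test of the difference itself. At IC50, FPM_IC50 libraries exceeded SRM_IC50 libraries by 1.69 for VDR, 0.68 for CYP24A1 and 0.30 for RXRA on the log2 scale (edgeR, adjusted p = 0.00547, 0.0149 and 0.00921), while the dose by particle term of each missed the threshold. In that comparison 39.3% of all tested genes were called and 23.2% were higher. The CYP24A1 and RXRA calls were lost with no filter, with only those groups fitted and without certain single libraries. The FPM libraries also had the higher antisense share, whose part in these values was not tested.

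Among the pathway lists, the log2 dose by particle term passed in edgeR for 10 genes, all positive. The term is the FPM difference between IC50 and IC25 minus the SRM difference, and 14.6% of all tested genes were called for it. Calls fell on 2 of 8 tested transport and synthesis genes, 0 of 14 coregulators, 5 of 19 targets and 3 of 13 receptors that pair with RXR. Nothing about the lists as groups is read from these counts. The term was 1.31 for LRP2 and 2.74 for CYP11A1 among the transport and synthesis genes. It was 2.45 for TRPV6, 2.74 for IGFBP3, 0.72 for ATP2B1, 1.07 for SLC8A1 and 0.59 for LRP5 among the targets. It was 2.58 for PPARG, 1.82 for THRB and 1.57 for RARB among the receptors that pair with RXR. CYP11A1, TRPV6, ATP2B1, SLC8A1, THRB and RARB have exons that overlap an opposite-strand gene, and their terms are uncertain to that extent. The term includes the FPM libraries, which had the higher antisense share. The SLC8A1 term had an adjusted p of 0.0338 and passed in 17 of 25 alternatives. The LRP5 term had an adjusted p of 0.0483 and passed in 10 of 25 alternatives, with adjusted p of up to 0.213.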

How the results depend on the processing

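Of 1284 alternative values of member fold changes, 1221 kept their direction and their side of the threshold, 23 kept their direction and lost the call, 11 kept it and gained a call, and 29 changed sign, none of these called in either fit. The number of members called in SRM_IC50 against UNT libraries was 1 in place of 2 with either limma fit, which could not test VDR or CYP27B1, with only the groups compared and without the FPM libraries, and 1 to 2 with single libraries left out. In SRM_IC50 against SRM_IC25 libraries it was 2 in place of 4 with the GC correction and 3 to 4 with single libraries left out. In FPM_IC50 against SRM_IC50 libraries it was 1 in place of 3 with no filter or only those groups, and 2 to 3 with single libraries left out. The dose by particle count was 1 in place of 0 with DESeq2, its size factors, no filter, the replicate block or TMM from genes without an opposite-strand neighbour, and 0 to 1 with single libraries left out. The cause of these changes was not tested.

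The sign changes were small log2 values. For CYP27B1 in FPM_IC25 against SRM_IC25 libraries they were 0.028 (DESeq2), 0.049 (GC correction) and −0.21 to 0.35 with single libraries left out. With single libraries left out, CYP27B1 was −0.23 to 0.47 in FPM_IC50 against FPM_IC25 and −0.46 to 0.099 in FPM_IC50 against SRM_IC50 libraries, CYP24A1 was −0.054 to 0.10 in SRM_IC25 against UNT libraries, and RXRB was −0.083 to 0.013 in FPM_IC50 against FPM_IC25 libraries. With limma, CYP2R1 was 0.0054 and 0.0067 in FPM_IC50 against UNT libraries, and RXRA was 0.0026 and 0.0029 in FPM_IC25 against SRM_IC25 libraries. With the GC correction, alone and then with the replicate block, CYP2R1 was −0.028 and −0.031 in SRM_IC50 against SRM_IC25 and −0.023 and −0.032 in FPM_IC25 against SRM_IC25 libraries. In the same order RXRA was −0.016 and −0.015 in SRM_IC25 against UNT and 0.051 and 0.055 in FPM_IC25 against SRM_IC25 libraries, and −0.0032 in FPM_IC50 against UNT libraries with the correction alone. RXRB was −0.033 and −0.036 in FPM_IC50 against UNT and −0.0026 and −0.0038 in FPM_IC25 against UNT libraries.

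Replicate numbers are shared between groups, and deviations of same-numbered libraries correlated between −0.14 and 0.44 over 30 pairs, with 16 over 0.1. Pairs of replicate 3 libraries were all positive, at 0.097 to 0.44. The main fit did not use the numbers to pair libraries, and whether same-numbered libraries share a batch was not tested. With the replicate block, SRM_IC50 against UNT libraries gave −1.32 for VDR (adjusted p = 0.0298) and −0.91 for CYP24A1 (0.00315), and RXRA gained a dose by particle call (0.37, adjusted p = 0.0234). Over all genes the block called 2718 in place of 831 in SRM_IC25 against UNT libraries, 4079 in place of 2693 in FPM_IC25 against UNT and 34 in place of 2 in FPM_IC50 against FPM_IC25 libraries. The all-gene count in SRM_IC25 against UNT libraries was also 1881 with DESeq2, 7 with the GC correction and the block, and 0 with the GC correction, with only the groups compared or without the FPM libraries. It was 0 without SRM_IC25 replicate 2, SRM_IC25 replicate 3 or UNT replicate 2, 2 without UNT replicate 3, and 319 to 1153 without any other single library. In FPM_IC50 against FPM_IC25 libraries it was also 40 with DESeq2, 116 with no filter, 4 with the GC correction and 35 with that and the block. Depth limits VDR and CYP27B1 most, at 3 to 139 and 7 to 37 reads per library.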
